A study of Homo sapiens with 12 samples.

Results

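The 48 protein-coding genes whose symbols name proteasome subunits, assembly factors and regulators (PSMA to PSMG followed by a number) were examined in peak lists of chromatin immunoprecipitation sequencing from HEK293T cells, a human embryonic kidney line that carries the SV40 large T antigen. They were 48 of the 19970 protein-coding genes of the RefSeq table on chromosomes 1 to 22 and X, and the symbols alone chose them. Wild-type cells were fixed with 1% formaldehyde for 5 min, and chromatin was precipitated with antibodies against INTS13, INTS11, HDGF, ZEB1 or ZNF609, with 2 libraries per protein and 2 input libraries that are not analysed here. The study asked whether INTS13 and transcription factors that interact with it meet at the same loci. No treatment or mutant was compared, and no expression was measured, so the line could not be checked against its markers.

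INTS13 and INTS11 belong to Integrator, the complex that ends transcription by RNA polymerase II early at many genes, with INTS11 as the subunit that cuts the nascent RNA. HDGF binds chromatin through a PWWP domain. ZEB1 represses epithelial genes and binds E-boxes, and ZNF609 has a zinc finger. The proteasome degrades ubiquitin-tagged proteins in a barrel built from alpha and beta rings, of which the beta rings hold the cutting sites. A cap of ATPases and non-ATPase subunits recognises, unfolds and feeds the substrate, dedicated chaperones put the parts together, and separate activators or an inhibitor can bind the ends of the barrel. Transcription of most subunit genes is raised together when proteasome activity falls, through the factor NFE2L1 (Nrf1), which binds antioxidant response elements with small MAF partners.

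A gene was called occupied by a protein where a region found in both of its lists (merged peaks holding a peak of each list) overlapped the 1 kb either side of an end of the gene. The lists held 26409 to 416964 peaks on these chromosomes, and the read depth behind them is unknown. The peak heights at the proteasome genes were low: the strongest peak per gene and list had a fold over the caller's background between 1.76 and 5.34. Folds of different lists have different backgrounds, so peaks are also given by percentile, the share of peaks of the same list with a lower -log10 p.

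Start sites were listed for 42 of the 48 genes. The 250 bases before the start of 5 of them are printed because they show the range found: HDGF without reproducible INTS13 (PSMC6), INTS13 with HDGF (PSME1), an INTS13 peak of high rank (PSMA5), reproducible ZEB1 (PSMB4) and no peak of any list (PSMB3). The sequences are RefSeq's for GRCh38.p14, each 5′ to 3′ on the strand of its gene. Capitals mark matches on either strand to TGACNNNGC (the antioxidant response element), CCAAT (the NF-Y box) or CCGGAAG (an ETS site). They lie at chr14:52706950-52707199 on the plus strand for PSMC6, chr14:24135944-24136193 on the plus strand for PSME1, chr1:109426449-109426698 on the minus strand for PSMA5, chr1:151399323-151399572 on the plus strand for PSMB4 and chr17:38752491-38752740 on the plus strand for PSMB3.
PSMC6: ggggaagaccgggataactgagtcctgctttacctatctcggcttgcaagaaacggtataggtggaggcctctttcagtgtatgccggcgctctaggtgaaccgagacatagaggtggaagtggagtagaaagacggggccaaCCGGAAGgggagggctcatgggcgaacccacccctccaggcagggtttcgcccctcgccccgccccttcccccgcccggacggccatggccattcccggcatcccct
PSME1: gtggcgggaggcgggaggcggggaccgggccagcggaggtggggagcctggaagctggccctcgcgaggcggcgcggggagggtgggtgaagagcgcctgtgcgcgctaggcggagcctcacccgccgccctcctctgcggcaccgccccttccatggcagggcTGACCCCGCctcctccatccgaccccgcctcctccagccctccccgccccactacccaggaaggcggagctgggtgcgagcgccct
PSMA5: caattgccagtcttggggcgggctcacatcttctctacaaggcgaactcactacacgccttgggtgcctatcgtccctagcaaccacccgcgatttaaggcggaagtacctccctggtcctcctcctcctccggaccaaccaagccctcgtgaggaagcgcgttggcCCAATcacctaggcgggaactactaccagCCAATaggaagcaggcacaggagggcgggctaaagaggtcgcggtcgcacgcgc
PSMB4: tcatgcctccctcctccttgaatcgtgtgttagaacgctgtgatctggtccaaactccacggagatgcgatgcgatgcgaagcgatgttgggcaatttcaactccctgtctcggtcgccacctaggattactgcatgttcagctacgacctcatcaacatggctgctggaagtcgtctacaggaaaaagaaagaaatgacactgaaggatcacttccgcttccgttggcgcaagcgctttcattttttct
PSMB3: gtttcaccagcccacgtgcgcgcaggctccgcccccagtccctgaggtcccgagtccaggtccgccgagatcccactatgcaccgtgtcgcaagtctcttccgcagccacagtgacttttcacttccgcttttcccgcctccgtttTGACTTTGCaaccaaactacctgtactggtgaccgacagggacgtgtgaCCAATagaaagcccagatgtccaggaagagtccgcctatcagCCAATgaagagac

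INTS13 was the protein found at the most proteasome genes, with 33 of 48 occupied (68.8%) against 63.7% of the other 19922 protein-coding genes. By single list, 41 members (85.4%) had an INTS13 peak in replicate 1, against 79.5% of other genes, and 34 (70.8%) in replicate 2, against 68.1%. INTS11 occupied 9 members (18.8%) against 17.4%; it had peaks at 29 (60.4%) in replicate 1, against 50.0%, and at 10 (20.8%) in replicate 2, against 22.2%. For regions of both lists, the shares of both Integrator subunits among the members were near those of other genes. The single INTS11 lists differed, with members above other genes in replicate 1 and slightly below them in replicate 2.

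HDGF stood further from the background. It occupied 17 members (35.4%) against 22.1% of other genes, with peaks at 27 (56.2%) against 38.4% in replicate 1 and at 26 (54.2%) against 34.5% in replicate 2. ZEB1 occupied 3 members (6.25%) against 3.78%; its lists had peaks at 7 (14.6%, against 13.3%) and 4 (8.33%, against 8.48%). ZNF609 occupied none, where 1.57% of other genes were occupied, and a peak of either ZNF609 list was at PSMA6, PSMD10 and PSMG1 (6.25%, against 8.26%). PSMD10 had peaks of both ZNF609 lists, which shared no merged region. For regions of both lists the side of the background changed with stricter lists: with peaks limited to a -log10 q from 5 upwards, INTS13 was at 5 members (10.4%, against 18.2%) and HDGF at none, against 2.67%, and among the 10000 highest peaks of each list HDGF was at PSMB4 and PSMG1 (4.17%, against 4.64%). Single lists differed. With the same limit on q, 26 members (54.2%) had an INTS13 peak in replicate 1, against 45.2%, but 4 (8.33%) in replicate 2, against 20.3%. For HDGF these numbers were 6 (12.5%, against 6.32%) and 2 (4.17%, against 4.43%). Among the 10000 highest peaks, HDGF was at 7 members (14.6%, against 8.66%) in replicate 1 and at 6 (12.5%, against 8.82%) in replicate 2. These counts carry no test: the members are not replicates of a condition, and earlier results of these data were known when they were chosen.

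**Figure D1:**
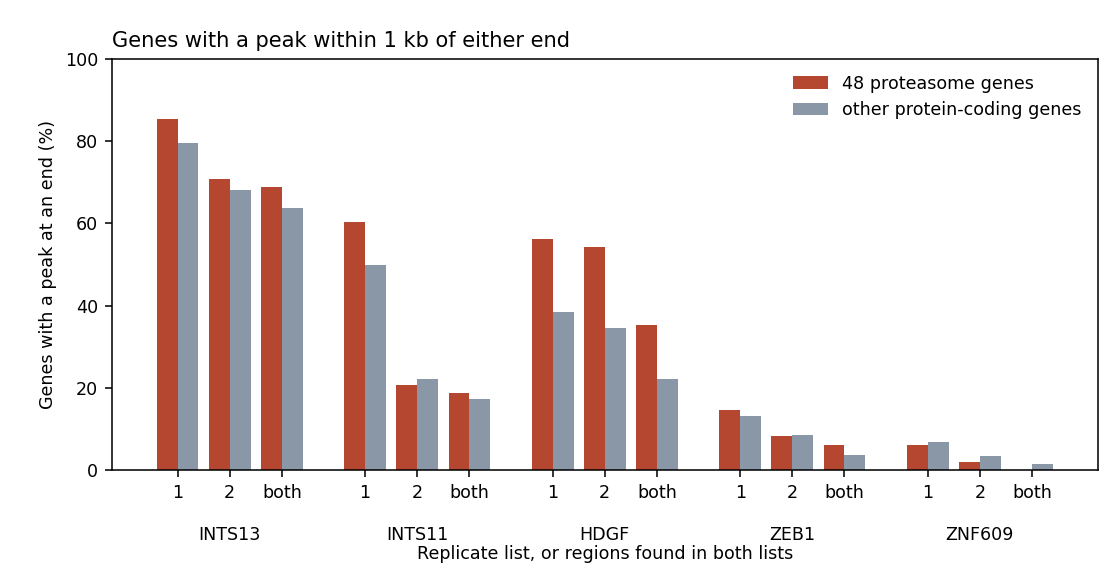
Share of genes with a peak within 1 kb of either end, in percent, for each replicate list and for regions found in both lists; red bars are the 48 proteasome genes and grey bars the other protein-coding genes. The bars lie close together for INTS13, ZEB1 and ZNF609, while the HDGF bars of the proteasome genes are higher in both lists (56.2% against 38.4% and 54.2% against 34.5%).

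Most members carried few of the 5 proteins. None was found at 13 (27.1%, against 35.4% of other genes), exactly 1 at 18 (37.5%, against 36.4%), 2 at 9 (18.8%, against 16.8%), 3 at 6 (12.5%, against 8.04%) and 4 at 2 (4.17%, against 2.18%). No member carried all 5, a state of 1.14% of other genes. INTS13 alone was the most frequent state, at 16 members (33.3%), and was about as frequent at other genes (35.5%). INTS13 with HDGF followed at 8 (16.7%, against 10.6%) and INTS13 with INTS11 and HDGF at 5 (10.4%, against 7.36%). HDGF alone was seen at PSMA1 and PSMC6, that is 4.17% of members and 0.758% of other genes.

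Where the peaks lay was read for the 42 members with a listed start site. INTS13 was at the start of 28 (66.7%, against 61.9%) and at the far end of 19 (45.2%, against 43.4%). INTS11 was at the start of 7 (16.7%, against 16.2%) and at the far end of 4 (9.52%, against 10.4%). HDGF was at the start of 9 (21.4%, against 17.7%) and at the far end of 10 (23.8%, against 14.8%). The distance of HDGF from its background was thus wider at far ends than at starts, and the difference between these 2 distances was not tested. ZEB1 was at 2 starts (4.76%, against 3.32%) and 1 far end (2.38%, against 2.21%), and ZNF609 at none, where the other genes gave 1.23% at starts and 1.08% at far ends.

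The HDGF genes divided by end. PSMA5, PSMB4, PSMB10, PSMC3, PSME1 and PSMG1 had HDGF at both ends (14.3% of the 42, against 7.91% of other genes). PSMA4, PSMC4 and PSMC6 had it at the start alone (7.14%, against 9.77%). PSMB5, PSMD6, PSME3 and PSMG4 had it at the far end alone (9.52%, against 6.92%). PSMA1 had it at an annotated end 123 kb before its listed start, and no start site was listed for PSMA7, PSMD4 and PSMG3. Far ends near the start of another gene were rare: 2 of 42 (PSMD9 by CFAP251 and PSME3 by AOC2), against 4.10% of other genes. Away from such starts, HDGF was at 9 of 40 far ends (22.5%) against 14.3%.

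Windows of the same width placed 20 kb outside each gene end were read in the same way. INTS13 was found there at 29 of 48 members (60.4%, against 53.3%), INTS11 at 8 (16.7%, against 13.9%), ZEB1 at 2 (4.17%, against 3.08%) and ZNF609 at none, against 1.65%. HDGF was found there at 8 members (16.7%), against 16.2% of other genes. In single HDGF lists, however, the flanks of members were also above those of other genes, with 23 members (47.9%) against 32.5% in replicate 1 and 17 (35.4%) against 27.2% in replicate 2.

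**Figure D2:**
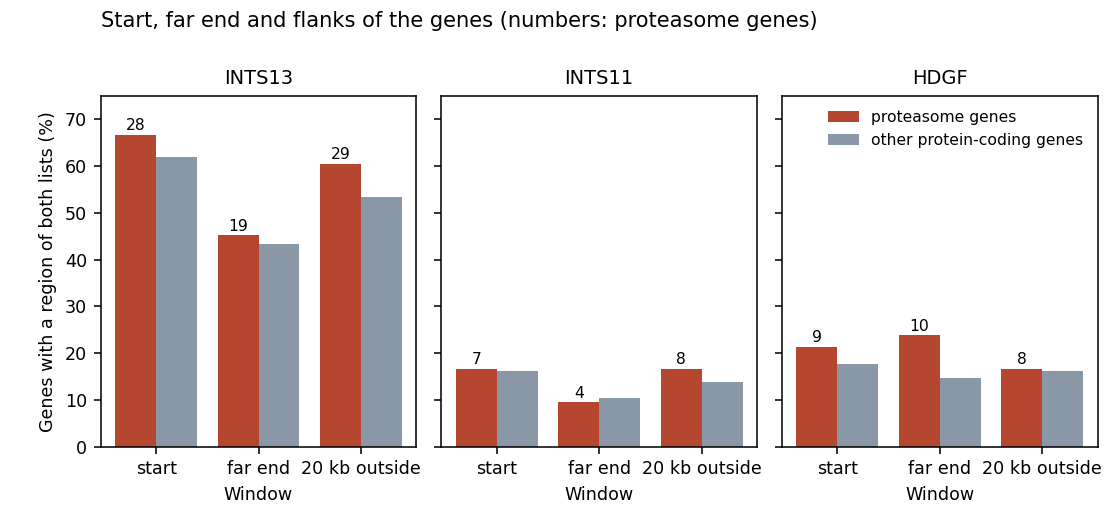
Share of genes with a region of both lists, in percent, within 1 kb of the start, of the far end and of points 20 kb outside the gene, for INTS13, INTS11 and HDGF; red bars are proteasome genes with their number above, grey bars other protein-coding genes. HDGF differs from other genes most at the far end (10 members, 23.8% against 14.8%) and hardly in the flanks (16.7% against 16.2%).

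Gene length and peak-rich stretches moved with these counts. The median length was 13.6 kb for members and 24.2 kb for other genes. Among genes shorter than 15 kb, HDGF occupied 14 of 25 members (56.0%) against 25.8%, and among longer genes 3 of 23 (13.0%) against 19.9%, so the HDGF genes were nearly all short ones, and the longer members lay below the background. INTS13 divided in the same direction, with 20 of 25 short members (80.0%, against 64.1%) and 13 of 23 longer ones (56.5%, against 63.5%). Of the members, 11 (22.9%) lay in 1-Mb bins dense in peaks, as did 22.7% of other genes. INTS13 occupied all 11 (100%, against 95.3%), HDGF 8 (72.7%, against 55.2%) and INTS11 6 (54.5%, against 56.7%). Outside these bins the counts were 22 of 37 for INTS13 (59.5%, against 54.5%), 9 for HDGF (24.3%, against 12.4%), 3 for INTS11 (8.11%, against 5.95%) and none for ZEB1, against 0.169%. The part of length in the HDGF count was not tested.

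The 20S core genes come first among the roles, and the folds given for a gene are those of the strongest peak at its ends in each list. The counts by role stand beside occupied shares of other genes of 63.7% for INTS13, 22.1% for HDGF, 17.4% for INTS11 and 3.78% for ZEB1. Each role holds few genes, and differences between roles were not tested. Of the 7 alpha ring genes, INTS13 occupied 3, HDGF 4 and INTS11 1. PSMA4 and PSMA5, structural alpha subunits, both had peaks in 6 of the 10 lists, with median percentiles of 94.2 and 93.8. At PSMA5 (chr1:109399042-109426448) the strongest INTS13 peaks had folds of 4.15 and 2.74 in replicates 1 and 2, the INTS11 peaks 3.38 and 2.74, and the HDGF peaks 4.14 and 3.95. The first of these was at percentile 99.4, the same fold and percentile as INTS13 peaks of replicate 1 at the starts of PSMC4 and PSMG4, and its summit lay at -48 bases from the start, within the stretch printed above. The strongest HDGF peak of each list at PSMA5 lay at the far end, and replicate 2 also had a summit at -116 bases from the start, with a fold of 3.72. PSMA4 had the highest HDGF percentile of the family, a median of 96.0, with folds of 4.54 and 4.41 at its starts. PSMA7, an alpha subunit with peaks in 5 lists, had HDGF at percentile 57.4 in replicate 1 and 96.4 in replicate 2, so its libraries differed widely. PSMA1 had HDGF at folds of only 2.56 and 2.79, at percentiles 8.62 and 10.2. The first lay at the annotated upstream end, where the region of both lists was, and the second at the far end. At PSMA1 and PSMA6 the listed starts lay 123 and 13.8 kb inside the annotated gene. Regions of both INTS13 lists were found at those starts but not at a gene end.

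Of the 7 constitutive beta ring genes, INTS13 occupied 6, all but PSMB3, while HDGF occupied 2, INTS11 1 and ZEB1 1. PSMB4 (chr1:151399573-151401937), a non-catalytic beta subunit gene only 2.37 kb long, had peaks in 8 lists. Its INTS13 peaks had folds of 3.72 and 2.55, its INTS11 peaks 2.82 and 2.38, and its HDGF peaks 4.54 and 4.18. The ZEB1 peaks had folds of 2.96 and 2.55, at percentiles 83.7 and 34.0, the first at the far end and the second near the start. Both libraries of these 4 proteins therefore had a peak at PSMB4, and neither ZNF609 library did. PSMB5 encodes the chymotrypsin-like subunit that bortezomib blocks. It had HDGF at its far end, with folds of 3.55 and 4.18, and INTS13 there with folds of 2.94 and 1.89. PSMB1, with peaks in 4 lists at a median percentile of 86.5, had INTS13 but no reproducible HDGF.

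Among the 5 immunoproteasome and tissue-specific genes, PSMB10 and PSMA8 were the occupied ones. PSMB10, an interferon-induced catalytic subunit, had peaks in 6 lists, with INTS13 folds of 3.89 and 2.42 and HDGF folds of 2.96 and 3.72. PSMA8, the testis alpha subunit, had peaks in 5 lists, in both libraries of INTS13 and HDGF and in ZEB1 replicate 1, but only its INTS13 peaks formed a region found in both lists. PSMB8, PSMB9 and the thymic PSMB11 had no peak in any list.

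Of the 6 ATPase genes of the base, INTS13 occupied 4, HDGF 3 and INTS11 1. At PSMC3 (chr11:47418775-47426439) INTS13 had folds of 2.77 and 2.48, INTS11 of 2.20 and 2.16, and HDGF of 4.93 at the far end and 3.48 near the start. PSMC6 (chr14:52707200-52728590) was the clearest gene with HDGF and no reproducible INTS13 region. Its HDGF peaks had folds of 3.16 and 5.34, at percentiles 57.4 and 99.1, and the peak of replicate 2, at chr14:52706924-52707240, spans the whole stretch printed above. The 2 HDGF libraries thus both had a peak there but ranked it far apart. INTS13 had a peak with a fold of 2.86 in replicate 1 and none in replicate 2. PSMC4 and PSMC5 each had peaks in 4 lists, with median percentiles of 71.0 and 82.9.

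Of the 11 non-ATPase cap genes, INTS13 occupied 8, INTS11 3, HDGF 2 and ZEB1 1. PSMD4, the ubiquitin receptor of the cap, lies at chr1:151254734-151267479, in the same stretch of chromosome 1 as PSMB4, and also had peaks in 8 lists. Its folds were 3.38 and 2.87 for INTS13, 2.76 and 2.67 for INTS11, and 3.16 and 3.48 for HDGF. Its ZEB1 folds were 2.19 and 2.80, at percentiles 5.65 and 63.2, from peaks at opposite ends of the gene, so the first was among the weakest of its list. PSMD6, a lid subunit, had INTS13 at its start with folds of 3.38 and 2.35 and HDGF at its far end with 2.96 and 3.72. Its strongest INTS11 peaks had folds of 2.41 at the start in replicate 1 and 2.53 at the far end in replicate 2. PSMD1, the base scaffold, had INTS13 with folds of 2.86 and 2.16 and INTS11 with 1.86 and 2.24, all at the start, and no reproducible HDGF. PSMD8 and PSMD13 had peaks in 5 lists each, in both libraries of INTS13 and HDGF and in INTS11 replicate 1, and again only INTS13 gave a region found in both lists. PSMD2, the other base scaffold, had a single peak in all 10 lists, from INTS11 replicate 1, at a fold of 1.93.

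Of the 5 activator and inhibitor genes, INTS13 occupied 4, all but PSME4, HDGF 2 and INTS11 1. PSME1 and PSME2 encode the interferon-induced activator PA28 alpha and beta, and PSME3 its nuclear relative. At PSME1 HDGF had folds of 4.73 and 3.48 at the far end and INTS13 of 2.77 and 2.55. At PSME3 INTS13 had folds of 3.64 and 2.55 and INTS11 of 2.55 and 2.24, all at the start, while HDGF lay at the far end with 3.75 and 3.48. PSME2 had peaks in 6 lists, in both libraries of INTS13, INTS11 and HDGF, but only its INTS13 peaks formed a region found in both lists.

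Of the 7 chaperone genes, INTS13 occupied 6, HDGF 3, INTS11 2 and ZEB1 1. PSMD10 (gankyrin, chrX:108084207-108091542) had peaks in 9 of the 10 lists, more than any other member. Its INTS13 folds were 4.07 and 2.81, and its INTS11 folds 2.82 and 2.81, at percentiles of 93.6 or more in all 4 lists. Its ZEB1 folds were 2.41 and 2.93 and its ZNF609 folds 2.58 and 2.96, but the ZNF609 peaks of the 2 lists did not meet in a shared region. HDGF had a fold of 3.95 there in replicate 2 and no peak in replicate 1, the 1 list that lacked PSMD10. PSMG1, which builds the alpha ring, had HDGF folds of 3.94 and 4.18 at its far end, a median percentile of 91.2, and INTS13 folds of 3.29 and 2.35 at its start. PSMG4, another alpha ring chaperone, had INTS13 folds of 3.55 and 2.55, INTS11 folds of 2.27 and 2.16 and HDGF folds of 3.16 and 3.48. The replicate 1 peaks of INTS13 and INTS11 lay at its annotated upstream end and those of replicate 2 at its far end. Its listed start lay 4.54 kb inside the annotated gene, and INTS13 replicate 1 had a summit with a fold of 4.15 there. The remaining HDGF gene, PSMG3, is the dimer partner of PSMG4.

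**Figure D3:**
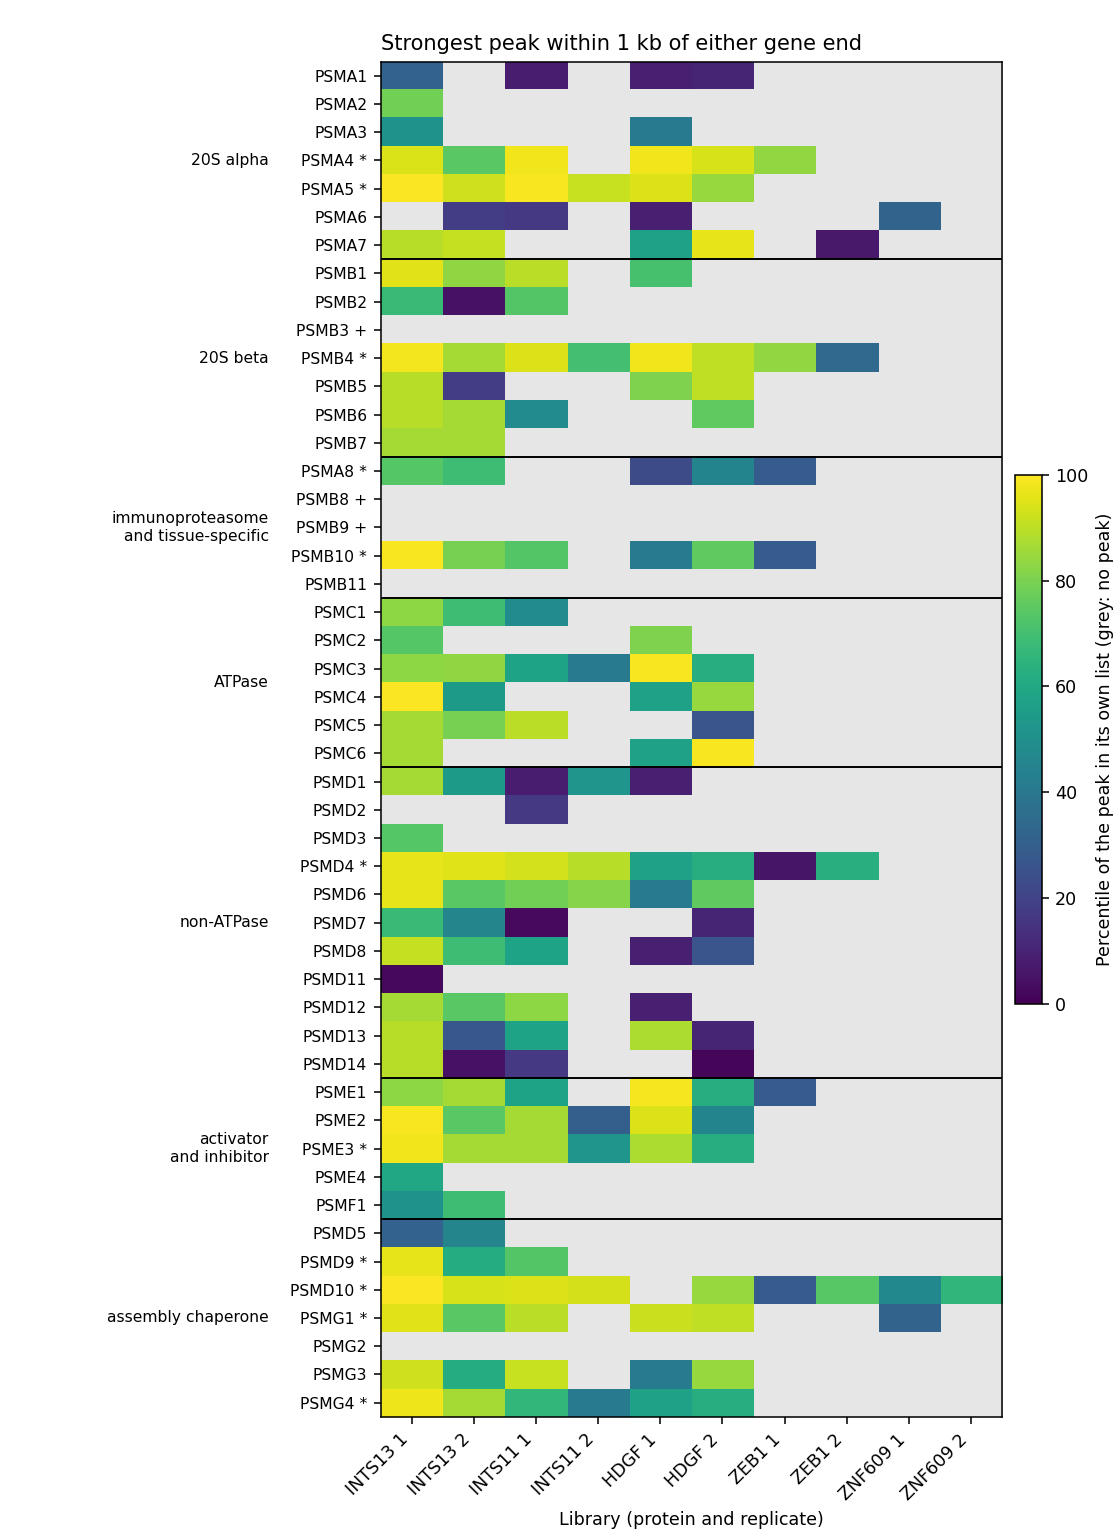
Percentile of the strongest peak within 1 kb of either gene end in its own list, for the 48 genes (rows, by role) and the 10 libraries (columns); grey is no peak, a star marks genes in 1-Mb bins dense in peaks and a plus sign genes in long stretches empty in all lists. INTS13 columns are filled for most genes, ZEB1 and ZNF609 columns for few, and PSMD10, PSMB4 and PSMD4 have the fullest rows (9, 8 and 8 lists).

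ZEB1 at proteasome genes rested on PSMB4, PSMD4 and PSMD10. All 3 lay in dense bins. Within 1 Mb of them ZEB1 also occupied 13 of 57 other genes around PSMB4 (22.8%), 17 of 62 around PSMD4 (27.4%) and 3 of 13 around PSMD10 (23.1%), above the 3.78% of all other genes. Nearer to these shares was ZEB1 in dense bins as a whole, at 16.1% of other genes. The neighbourhoods of PSMB4 and PSMD4 overlap and share genes, so they are not separate cases. The ZEB1 recognition letters CAGGTG were absent from the listed 300-base promoter of PSMB4 and of PSMD10. Across the family CAGGTG was in 7 of 51 listed promoters (13.7%), against 20.0% of the 22080 other promoters. A region of both ZEB1 lists was at the start of none of the 6 genes that had it. PSMA4, 1 of these genes, had a ZEB1 peak in replicate 1 alone. Its summit lay 56 bases into the gene from the nearest listed start, with a fold of 2.96 at percentile 83.7.

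The strength of the peaks was set against other genes by percentile. For INTS13 the median percentile of the strongest peak was the same in members and other occupied genes, 89.1 in replicate 1 and 74.6 in replicate 2. For INTS11 it was 73.2 against 66.2 and 61.2 against 52.3. For HDGF it was 57.4 against 70.9 in replicate 1 and 68.8 against 62.2 in replicate 2. HDGF peaks at members were therefore more frequent in both lists, but not higher in both.

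Of the members without peaks, some lay in long stretches without peaks. The 5 genes with no peak of any list near their ends were PSMB3, PSMB8, PSMB9, PSMB11 and PSMG2, and PSMD2 also lacked INTS13 in both lists. At PSMG2 a peak of INTS13 replicate 1, with a fold of 2.16 at percentile 31.5, lay at -251 bases from another listed start inside the gene. PSMB3 lay in a stretch of 3086 kb (chr17:35765350-38851245) without any peak of any list, which held 54 other protein-coding genes. PSMB8 and PSMB9, neighbours in the major histocompatibility complex, lay in another of 818 kb (chr6:32668806-33486400) with 31 other protein-coding genes. PSMB11 lay in an empty stretch of only 65.3 kb. Some called peaks were removed before deposit, and whether they came from these stretches was not tested, so the lists do not show whether the proteins bind PSMB3, PSMB8 and PSMB9. Such stretches of 500 kb or more, defined after seeing the data, held 6.25% of members and 5.55% of other genes. Leaving their genes out gave 33 of 45 members for INTS13 (73.3%, against 67.5%) and 17 of 45 for HDGF (37.8%, against 23.4%). The members left out had no peak of any list, so these counts could not change and the shares of members could only rise.

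For each gene, the share of other protein-coding genes within 1 Mb that INTS13 occupied was also taken. The 33 members with INTS13 had shares between 44.4% and 100%, with a median of 90.6%. The 15 without it had shares between 0% and 80.0%, with a median of 33.3%, and 7 of them (46.7%) had 10% or less. Among other protein-coding genes without INTS13, 31.6% had 10% or less, and among those with it 1.16%. The 7 members were PSMB3 and PSMD11 with no occupied neighbour, PSMD3, PSMG2, PSMB8, PSMB9 and PSMD2. They are not 7 separate cases. PSMB8 and PSMB9 lie side by side, each with 6 of 69 neighbours occupied (8.70%), and the windows of PSMB3 and PSMD3 overlap. PSMB11 was the opposite case: INTS13 occupied 32 of its 40 neighbours (80.0%). The groups overlap, and a member's own INTS13 call went with that of the genes around it.

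**Figure D4:**
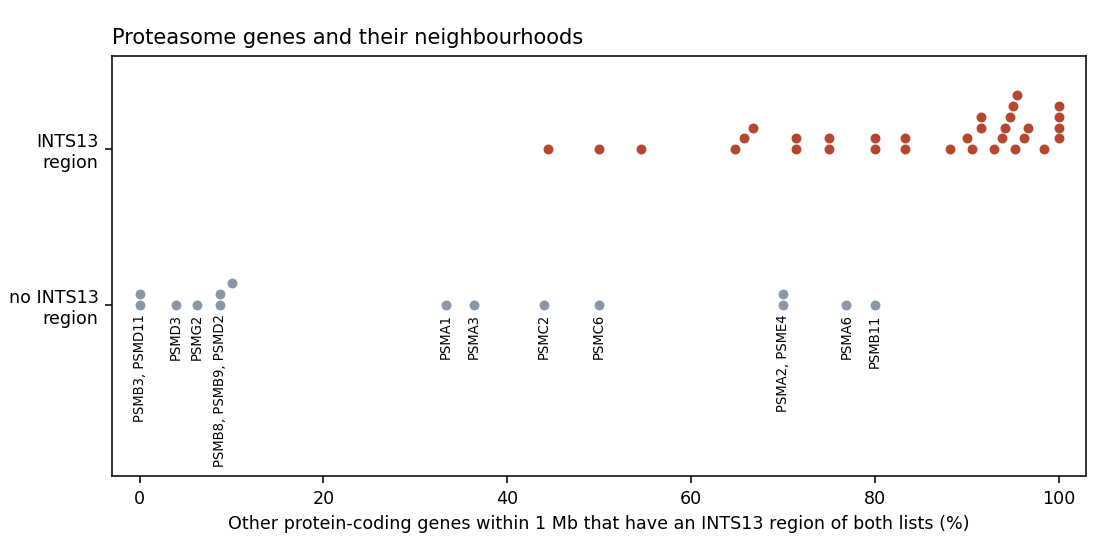
Each point is 1 proteasome gene, placed by the percent of other protein-coding genes within 1 Mb that have an INTS13 region of both lists; red points have such a region themselves and grey points, named, do not. Points stacked upwards share a similar value. The red points lie between 44.4% and 100%, and 7 of the 15 grey points lie at 10% or less.

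Summits within 1 kb of a listed start were placed by their distance from it. At members, 25 of 39 INTS13 summits of replicate 1 (64.1%) lay downstream, with a median of 175 bases into the gene, against 49.7% and a median of -2 at other genes. In replicate 2 it was 20 of 29 (69.0%) with a median of 242, against 55.5% and 91. INTS11 summits had medians of 154 and 344 bases, against 70 and 90, from 24 and 10 summits. Of these, 14 (58.3%, against 54.9%) lay downstream in replicate 1 and 8 (80.0%, against 54.4%) in replicate 2, the latter from 8 genes. HDGF summits lay upstream, with medians of -166 and -148, against -160 and -152 at other genes. The medians of Integrator summits at members were thus further into the gene in all 4 lists, though the INTS11 replicate 1 share downstream was near that of other genes. The HDGF medians differed from those of other genes by at most 6 bases. The share of HDGF summits downstream was 6 of 16 (37.5%, against 39.8%) in replicate 1 and 5 of 18 (27.8%, against 39.1%) in replicate 2. The spread was wide, from -985 to 784 bases for INTS13 replicate 1, and some genes gave more than 1 summit.

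**Figure D5:**
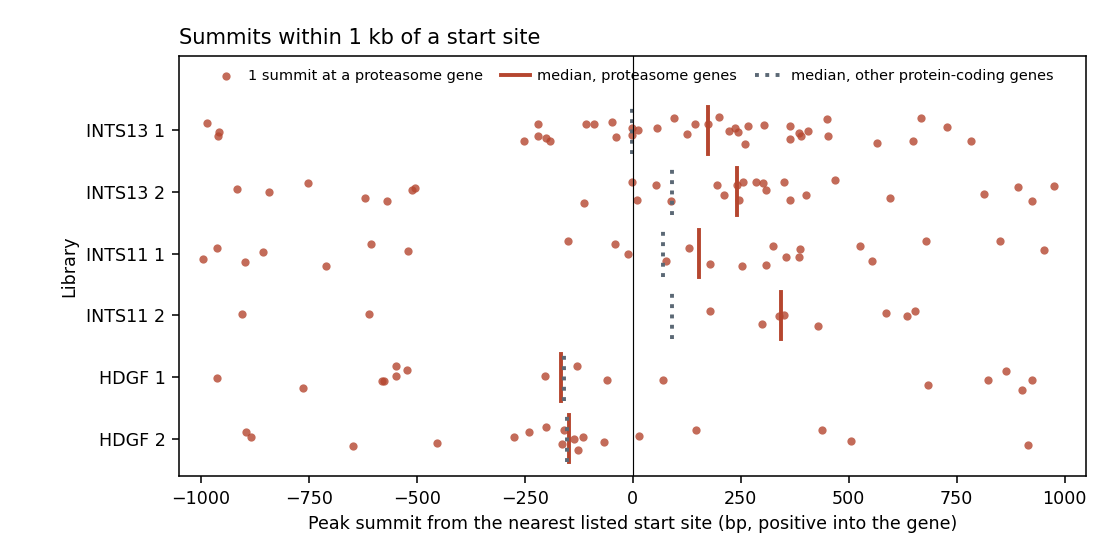
Distance of peak summits from the nearest listed start site in bases (positive into the gene) for summits within 1 kb, in 6 libraries; each red point is 1 summit at a proteasome gene, red bars are their medians and dotted bars the medians at other protein-coding genes. Red bars of INTS13 and INTS11 lie to the right of the dotted ones, and those of HDGF lie on them.

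The promoters of the family shared sequence features that the choice of genes did not use. TGACNNNGC was in 15 of 51 listed promoters (29.4%) against 13.8% of other promoters, and CCGGAAG also in 15 (29.4%) against 12.8%. CCAAT was in 20 (39.2%) against 34.6%, the GC box GGGCGG in 35 (68.6%) against 56.3% and TATAAA in 5 (9.80%) against 9.46%, all on both strands. The median GC content was 62.0% in members and 62.3% in others. Genes with the antioxidant element were occupied by INTS13 at the start as often as those without it, 10 of 15 and 18 of 27, and by HDGF at 4 of 15 and 5 of 27. Of the 15 genes with CCGGAAG, 12 had INTS13 at the start, against 16 of the other 27, and 1, PSMC6, had HDGF, against 8. In the printed stretches the antioxidant element begins at -86 from the start of PSME1, which had peaks in 6 lists, and at -104 from that of PSMB3, which lies in an empty stretch. CCGGAAG begins at -107 from the start of PSMC6, inside its HDGF peak of replicate 2. A start of a gene on the opposite strand lay within 1 kb of 13 of the 42 starts (31.0%, against 25.9%), as at PSMC5 with FTSJ3 58 bases away and PSMD13 with SIRT3 45 bases away. HDGF was at 1 of these 13 starts (7.69%, against 20.9%) and at 8 of the 29 others (27.6%, against 16.6%).

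Other genes of the ubiquitin and proteasome pathway were read in the same way. Of 30 such genes, INTS13 occupied 20 (66.7%, against 63.7% of all genes outside the family), HDGF 13 (43.3%, against 22.1%), ZEB1 4 (13.3%, against 3.78%), INTS11 3 (10.0%, against 17.4%) and ZNF609 none. Beside the proteasome genes themselves, the ZEB1 share was higher (13.3% and 6.25%) and the INTS11 share lower (10.0% and 18.8%), from few genes and with no test. UBQLN4, a shuttle for ubiquitinated proteins, UBE3C, a ubiquitin ligase on the proteasome, and UFD1, a cofactor of the unfoldase VCP, had INTS13, INTS11, HDGF and ZEB1. These 3 genes lay in dense bins, as did 8 of the 30 (26.7%, against 22.7%), and they were the only pathway genes with INTS11. MAFK, a small MAF protein outside such bins, had INTS13, HDGF and ZEB1. Outside dense bins ZEB1 occupied 0.169% of the genes outside the family. NFE2L1 itself had INTS13 and HDGF and peaks in 7 lists.

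Cytosolic ribosomal protein genes showed a higher HDGF share than the proteasome genes, while that of mitochondrial ribosomal protein genes was near it (in replicate 2, 54.5% beside 54.2%). HDGF occupied 54 of 86 cytosolic ribosomal protein genes (62.8%) and 29 of 77 mitochondrial ones (37.7%), beside 35.4% of proteasome genes, and INTS11 occupied 33.7% and 27.3%, beside 18.8%. The ribosomal genes were shorter, with median lengths of 5.05 and 8.62 kb. Of the 51 proteasome pseudogenes, copies scattered through the genome, INTS13 occupied 14 (27.5%) and HDGF 5 (9.80%). These 2 shares were below those of the parent genes, as was that of ZEB1 (3.92%, beside 6.25%). INTS11 was nearer, at 8 pseudogenes (15.7%, beside 18.8%). ZNF609 went the other way, at 3 pseudogenes (5.88%) and no parent gene, where 1.57% of other protein-coding genes were occupied. These were PSMD7P3 on chromosome 1 and PSMC1P13 and PSMD10P3 on chromosome 13. PSMD7P3 and PSMD10P3 carried all 5 proteins, and PSMC1P13 also had INTS13 and INTS11. ZNF609 was more frequent at other protein-coding genes inside dense bins than outside them. Whether these pseudogenes lay in dense bins was not tested, so the contrast with the parent genes may not be particular to ZNF609.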

How the data were processed

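Peaks were analysed as the authors deposited them, 1 list per library. Per the submitters' processing notes, FastQC, Trimmomatic, Bowtie, Picard and MACS2 were used. Their versions, the control and thresholds of peak calling, and the build were not given in the sources used here. Contig names of alternate loci are those of GRCh38, which was taken as the build. Folds are the authors' ratio of peak height to the caller's background. The deposited p-values and q-values stand as -log10, and the score, also deposited, is 10 times the -log10 q. Gaps in the running peak numbers show that some peaks were removed before deposit.

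Groups and replicate numbers came from the sample titles; nothing says that replicates were separate cultures. Peaks on chromosomes 1 to 22 and X were joined to RefSeq genes (GRCh38.p14), and start sites and promoter sequences came from RefSeq's promoter table, which matched 42 of 48 members. Regions were merged at 1 bp of overlap. A 1-Mb bin was dense where its relative peak count had a median over the 10 lists above 2. The overlap code was tested on simulated data. Python 3.11.15, pandas 2.3.3, NumPy 2.4.6 and matplotlib 3.10.9 were used. No test was run: 2 libraries against 2 cannot give an exact two-sided p under 0.333, and members are not replicates. The members and lists were chosen with earlier results of these data known; dense bins, empty stretches, length classes and neighbourhoods were chosen after seeing data. Members were described in full where INTS11, ZEB1 or ZNF609 occupied them, where they had the 8 highest HDGF percentiles or lacked INTS13 or all peaks, or where they were the 3 of their role with peaks in the most lists; pathway genes were described where 3 or more proteins occupied them. Alternatives were other windows, stricter peak lists, summits, single lists, starts alone and genes outside dense bins or empty stretches.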

Additional observations from a re-analysis of the deposited data

How the results depend on the processing

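The counts of occupied members depended most on how strict the peak lists were. With a -log10 q of 5 or more, INTS13 kept 5 members (10.4%, against 18.2% of other genes), INTS11 1 (2.08%, against 2.83%), HDGF 0 (against 2.67%) and ZEB1 0 (against 0.226%). With the 10000 highest peaks of each list the counts were 0 for INTS13 (against 5.19%), 1 for INTS11 (against 2.59%), 2 for HDGF (4.17%, against 4.64%) and 1 for ZEB1 (against 1.29%). For regions of both lists, the HDGF share above background was not seen in either stricter set, which hold fewer genes. It was seen in some stricter single lists, among the 10000 highest peaks at 14.6% against 8.66% and 12.5% against 8.82%, and for both lists with windows of 500 bp (17 members, 35.4% against 16.4%) and of 2 kb (23, 47.9% against 29.6%). At starts alone HDGF was at 9 members (21.4%, against 17.7%). Outside dense bins the counts were 9 for HDGF (24.3%, against 12.4%), 3 for INTS11 (8.11%, against 5.95%) and 0 for ZEB1 (against 0.169%). ZNF609 reached 1 member, PSMD10, where a summit of each list in the window sufficed (2.08%, against 1.48%). It was also the 1 member where a peak of each list sufficed (2.08%, against 2.18%), so both shares were near the background. Single lists gave 10 to 29 members for INTS11, 26 to 27 for HDGF, 4 to 7 for ZEB1 and 1 to 3 for ZNF609. Leaving out genes in empty stretches, an alternative chosen after seeing the data, changed no count of members. It could not have done so, because the members left out had no peak of any list. No paired analysis was possible because the counts come from no test between groups. Depth is unknown, so a gene without a peak may lie under the limit of its list.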
